A study of Rattus norvegicus with 6 samples.

Results

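The microRNAs miR-532, miR-188, miR-362, miR-501 and miR-500 are cut from hairpins that lie close together on the rat X chromosome, inside the host gene Clcn5, which encodes a chloride/proton exchanger of endosomes. The members were chosen by name, as 10 listed mature microRNAs (the arms of miR-500, miR-501, miR-532 and miR-362, with miR-188-5p and miR-660-5p). Of these, 9 were on the array, among 758 rat microRNAs in all, and rno-miR-660-5p was not.

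Plasma was taken from the abdominal aorta (arterial) and from the postcava (venous) of 3 untreated male Sprague-Dawley rats aged 10 weeks, and each of the 6 samples was hybridized to 1 single-colour Agilent array. The question was whether arterial and venous plasma of one animal carry the same microRNAs. Samples of a rat were paired by the rat number in the labels, so that each group holds 3 rats. Rats 1 and 2 were on slide 1 and rat 3 on slide 2, and differences of rat 3 from the others cannot be told apart from the slide. The blood was cleared of cells by centrifugation and filtering, and microRNAs in plasma derive from blood cells and many tissues.

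A hairpin is processed into a 5p and a 3p arm, one or both of which is loaded into an Argonaute protein, and bases 2 to 8 of the mature strand, the seed, select its target messages. Hairpins within one intron are usually transcribed together with the host gene, while the amount of each mature arm also depends on processing, loading and decay. In tissues, members of this cluster are known from tumour and bone studies. miR-188 is known to shift bone marrow stromal cells from bone towards fat, miR-500 and miR-362 are known to repress the NF-kappaB inhibitor CYLD, and miR-532-5p is known to repress the transcription factor RUNX3.

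RefSeq (GRCr8) places 5 hairpins of the cluster on the plus strand within 11542 bases, all inside the bounds of Clcn5, which is on the same strand. Mir532 is at chrX:17919185-17919263, Mir188 at chrX:17919585-17919664, Mir362 at chrX:17926485-17926549, Mir501 at chrX:17927189-17927272 and Mir500 at chrX:17930647-17930726. Between neighbours lie 321 bases from Mir532 to Mir188, 6820 from Mir188 to Mir362, 639 from Mir362 to Mir501 and 3374 from Mir501 to Mir500. The tables used here give gene bounds without exons.

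The hairpins of the members that were detected in plasma are shown first, because in each of them one arm was measured above background and the other was not. Capitals mark the mature arms, the 5p arm first.

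Mir188: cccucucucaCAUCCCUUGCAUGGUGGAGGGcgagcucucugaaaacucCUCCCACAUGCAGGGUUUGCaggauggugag

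Mir500: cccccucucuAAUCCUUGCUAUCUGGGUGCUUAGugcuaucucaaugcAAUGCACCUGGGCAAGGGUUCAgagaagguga

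The mature members follow in the order of their hairpins, with the seed in capitals. A mature sequence was found for 8 of the 9 members.

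rno-miR-532-5p: cAUGCCUUgaguguaggacugu

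rno-miR-532-3p: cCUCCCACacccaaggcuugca

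rno-miR-188-5p: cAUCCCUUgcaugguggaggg

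rno-miR-362-3p: aACACACCuguucaaggauuca

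rno-miR-501-5p: aAUCCUUUgucccuggguga

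rno-miR-501-3p: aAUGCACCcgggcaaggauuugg

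rno-miR-500-5p: aAUCCUUGcuaucugggugcuuag

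rno-miR-500-3p: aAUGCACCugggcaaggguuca

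rno-miR-500-3p and rno-miR-501-3p had the same seed, and among the 685 microRNAs of the array with a mature sequence no other had it. Counted from 1 at the 5′ end, they were identical at 18 of 22 positions and differed by U9C, G18A, C21U and A22G (the base of rno-miR-500-3p first), and rno-miR-501-3p had 1 base more. Their 5p arms were identical at 15 of 20 positions and differed by G8U, C9G, A11C, U12C and C20A, and the first of these lies in the seed. The seeds of rno-miR-188-5p, rno-miR-532-3p, rno-miR-500-5p and rno-miR-501-5p belonged to no other microRNA of the array with a sequence. rno-miR-532-5p shared its seed with rno-miR-511-5p, and rno-miR-362-3p with rno-miR-329-3p.

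Plasma held 2 members of the cluster above background, rno-miR-188-5p and rno-miR-500-3p. The Feature Extraction software, which reads the scanned array, called both detected on all 6 arrays and the other 7 on none. Over the whole array, 126 of 758 microRNAs (16.6%) were detected on all 6 arrays and 201 (26.5%) on at least 1. The count was 2 members on every array, in arterial and venous plasma alike, so that the difference was 0 in each rat. The exact sign-flip test within rats (two-sided) can then only give p = 1, and adds nothing to the counts. In general, 3 pairs allow it no p under 0.25.

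Before normalization, the processed (background-subtracted) intensity of rno-miR-188-5p in rats 1, 2 and 3 was 132, 63.1 and 34.8 on the arterial side and 64.2, 89.7 and 30.9 on the venous side. Rat 3 was lowest in both kinds of plasma, arterial plasma was higher in rats 1 and 3 and lower in rat 2, and the groups overlapped. For rno-miR-500-3p it was 13.8, 12.0 and 16.6 in arterial plasma and 10.2, 21.4 and 10.5 in venous plasma. The venous sample of rat 2 was highest, and the groups overlapped again. The highest array stood 4.27-fold above the lowest for rno-miR-188-5p and 2.10-fold for rno-miR-500-3p. These intensities also follow the overall brightness of the arrays, since the 126 always detected microRNAs had a median of 35.4, 41.8 and 30.1 in arterial and 21.8, 52.9 and 17.2 in venous plasma.

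**Figure D1:**
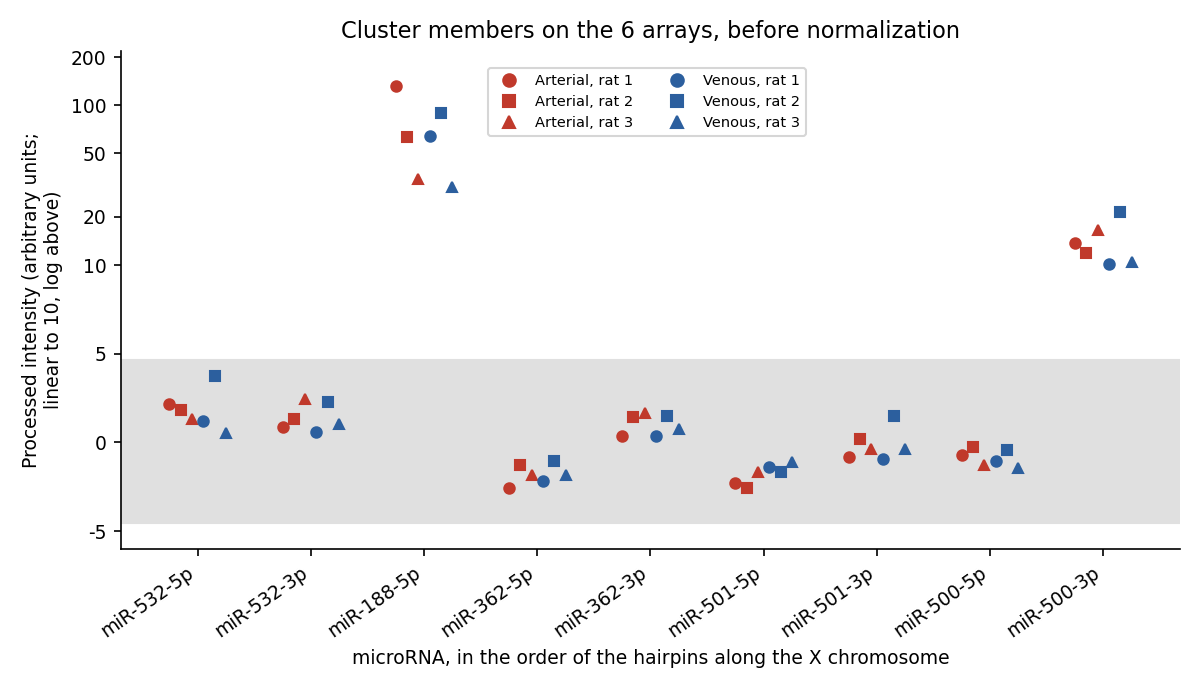
Processed intensity (arbitrary units, linear to 10 and logarithmic above) of the 9 members on each array, before normalization, with arterial samples in red, venous in blue and 1 symbol for each rat. The grey band runs from the lowest mean minus 2 SD to the highest mean plus 2 SD of the negative control spots over the 6 arrays (-4.55 to 4.67), and of the members rno-miR-188-5p and rno-miR-500-3p lie above it on every array. The band uses the SD of single spots, while each point averages up to 16 spots.

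The other 7 members lay between -2.60 and 3.76 in processed intensity on all arrays. Negative control spots had means of -0.36 to 0.30 with SDs of 1.78 to 2.25 on the same arrays. rno-miR-532-5p reached 2.17, 1.82 and 1.34 in arterial and 1.22, 3.76 and 0.50 in venous plasma of rats 1, 2 and 3. Its venous value in rat 2 was above the mean plus 2 SD of the negative controls of that array (3.65), and no other value of these 7 members passed that mark. The SD is that of single control spots, while a member's value averages up to 16 spots, so the mark is wide for such a mean. Like rno-miR-532-5p, rno-miR-532-3p (0.57 to 2.44) and rno-miR-362-3p (0.37 to 1.67) were above the negative control mean on all 6 arrays. rno-miR-501-3p (-0.93 to 1.48) was above it on 2. The remaining 3, rno-miR-500-5p, rno-miR-501-5p and rno-miR-362-5p, were below it on all 6. For these 7 members the arrays give no measured level, and no fold between arterial and venous plasma is given.

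Of 5 hairpins, 2 had 1 arm detected, the 5p arm of miR-188 and the 3p arm of miR-500, and 3 (miR-532, miR-362 and miR-501) had neither. Over the whole array 16.6% of microRNAs were detected on all 6 arrays. Hairpins of the whole array were not counted by arm, so these 2 are not set apart from others. The arms of a hairpin were also read by different probes. rno-miR-188-3p, which is not among the listed members, was detected on 0 of 6 arrays, with intensities of -2.20 to -0.46. rno-miR-500-5p was likewise detected on 0 arrays, with intensities of -1.46 to -0.25. rno-miR-501-3p, which shares its seed and 18 of 22 bases with rno-miR-500-3p, had 0 of 96 spots well above background over the 6 arrays, and rno-miR-500-3p had 49 of 96. Levels of different probes cannot be compared on such arrays, so that the ratio of the arms is not given, and no hairpin had both arms above the floor of 1 on every array for a comparison of that ratio between the plasmas.

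**Figure D2:**
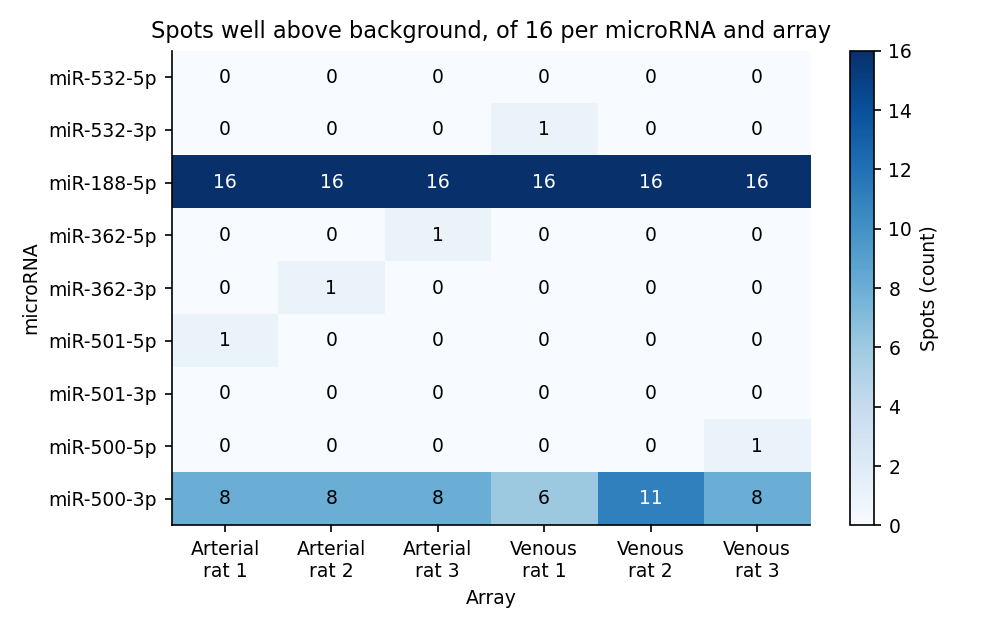
Number of spots well above background for each member (rows) on each array (columns), out of 16 spots. All 16 spots of rno-miR-188-5p and 6 to 11 of those of rno-miR-500-3p were well above background, against 0 or 1 for the other 7 members.

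Each member had 16 spots on an array. All 96 spots of rno-miR-188-5p over the 6 arrays were well above background. For rno-miR-500-3p the counts were 8, 8 and 8 of 16 in arterial and 6, 11 and 8 of 16 in venous plasma. Of the 672 spots of the 7 undetected members 5 were well above background (0.744%), and each of these 5 was also flagged as an outlier, against 220 of 52800 spots (0.417%) for the other 550 microRNAs detected on no array. By a stricter count that asks for at least 8 of the 16 spots, the venous sample of rat 1 held 1 member and every other sample 2.

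Each of the detected members was read by a pair of probes with 8 spots each. The probes of rno-miR-188-5p gave nearly the same intensity, with ratios of 1.05 to 1.20 over the arrays, and spots of a probe varied with a median coefficient of variation of 5.29% and 5.28%. The probes of rno-miR-500-3p differed by 2.15- to 2.94-fold, and the dimmer had 3 of its 48 spots well above background over all arrays, against 46 of 48 for the brighter. The dimmer probe measured 8.51, 6.31 and 8.45 in arterial and 6.01, 13.3 and 6.65 in venous plasma. The brighter measured 19.1, 17.6 and 24.8 in arterial and 14.4, 29.4 and 14.3 in venous plasma. Before normalization, the log2 ratios of arterial to venous plasma of both probes had the same sign within each rat. They were 0.50 and 0.41 in rat 1, -1.08 and -0.74 in rat 2 and 0.35 and 0.79 in rat 3. The always detected microRNAs shifted with those signs too, by a median of 0.63, -0.29 and 0.84 in rats 1, 2 and 3. The shared signs therefore cannot be told apart from the brightness of the arrays. In the authors' quantile-normalized table the probes moved the same way in rat 2 and in opposite directions in rats 1 and 3. Spots of the rno-miR-500-3p probes varied more, with a median coefficient of variation of 17.7% for the dimmer and 7.16% for the brighter probe.

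**Figure D3:**
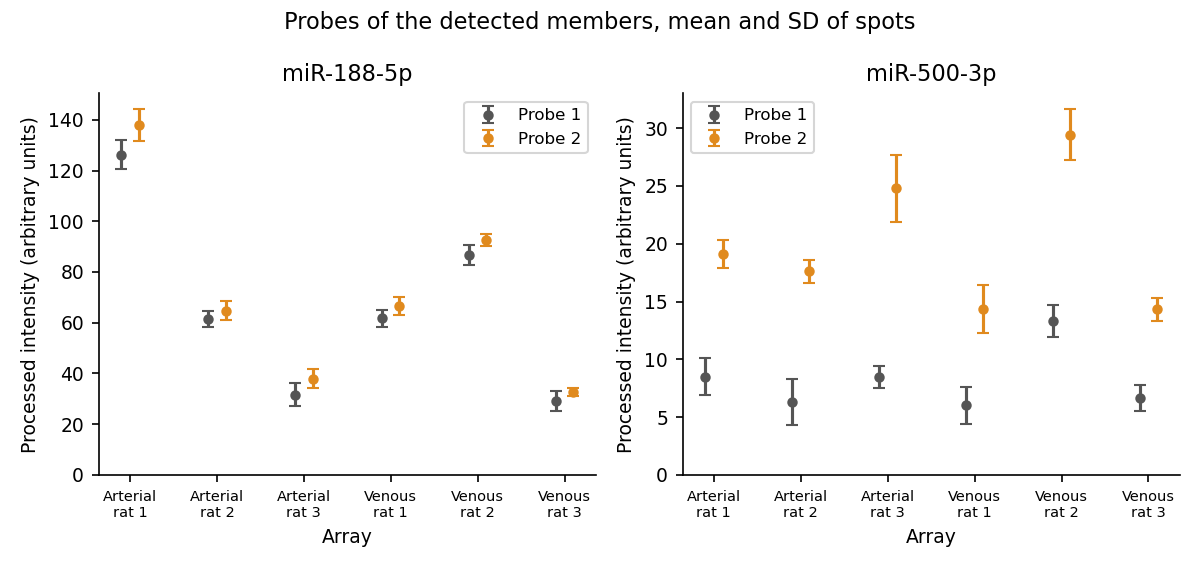
Processed intensity (arbitrary units) of each probe of the detected members on each array, as the mean (point) and SD (bar) of its spots, at most 8, without spots flagged as outliers. The probes of rno-miR-188-5p nearly coincide, and the brighter probe of rno-miR-500-3p (orange) lies at 14.3 to 29.4 while the dimmer (grey) lies at 6.01 to 13.3.

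For the comparison between plasmas, the intensities were quantile normalized between arrays, raised to 1 where they fell below it, and put on the log2 scale. On this scale rno-miR-188-5p measured 6.69, 5.66 and 5.22 in arterial plasma (5.86 ± 0.76, SD, n = 3) and 6.53, 5.90 and 5.94 in the venous plasma (6.13 ± 0.36, SD, n = 3). Rat 1 was highest in both plasmas, and the groups overlapped. Arterial minus venous was 0.16, -0.24 and -0.72 in rats 1, 2 and 3, with rat 1 opposite to the others. The mean difference was -0.27 (SE 0.24, 95% interval -1.23 to 0.69), within the spread between rats. It did not pass (limma adjusted p = 1, exact sign-flip test within rats p = 0.5), and without rat 3 it was -0.04, which is also the value within slide 1.

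rno-miR-500-3p measured 3.34, 3.47 and 4.23 in arterial (3.68 ± 0.48, SD, n = 3) and 3.64, 4.05 and 4.23 in venous plasma (3.97 ± 0.30, SD, n = 3) on the same log2 scale. Rat 1 was lowest and rat 3 highest in both plasmas, and the groups overlapped. Arterial minus venous was -0.30 in rat 1 and -0.58 in rat 2, and in rat 3 the difference was 0, since the microRNA had the same rank on both arrays. The mean difference was -0.29 (SE 0.16, 95% interval -0.92 to 0.34), with an adjusted p of 1 in limma and p = 0.5 in the exact sign-flip test. Within slide 1, that is without rat 3, it was -0.44. rno-miR-500-3p stands in the list of differing microRNAs that the study chose on these samples, so its direction here is not independent evidence.

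**Figure D4:**
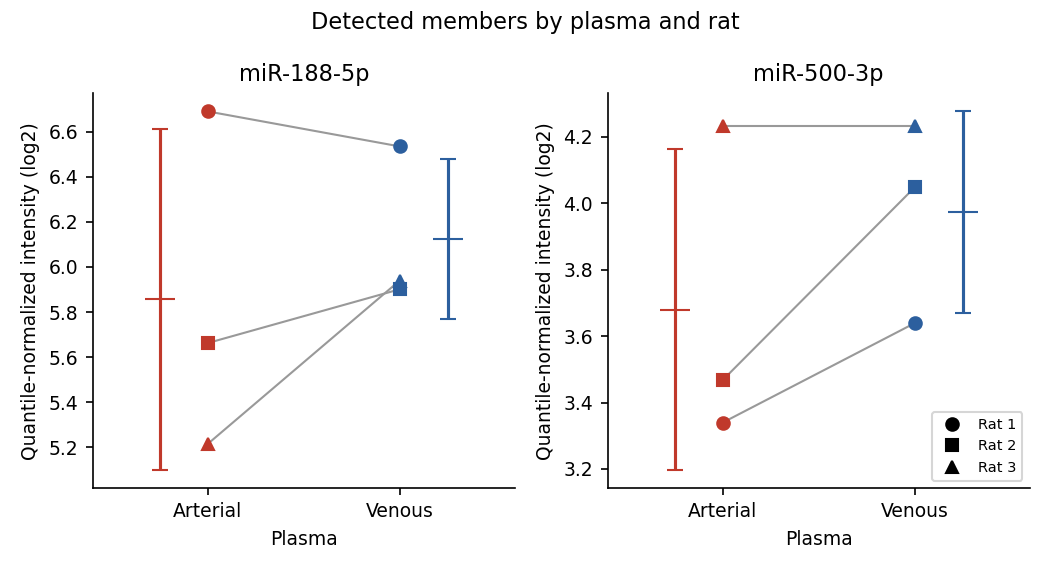
Quantile-normalized log2 intensity of rno-miR-188-5p (left) and rno-miR-500-3p (right) in arterial (red) and venous (blue) plasma, with a line joining the samples of a rat and, beside the points, the mean and SD of 3 rats. rno-miR-188-5p lay lower in venous than in arterial plasma in rat 1 and higher in rats 2 and 3, and rno-miR-500-3p was higher in venous plasma in rats 1 and 2 and equal in rat 3.

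No member passed the unadjusted cutoff of 0.025 (0 of 9, and 0 of 9 at 0.05) in limma with the rat as a block. At the floor on every array lay 3 of the 9 members and 378 of the 758 microRNAs, which were counted as tested but could not pass. Over all microRNAs 4 of 758 (0.528%) passed as higher in arterial and 2 (0.264%) as higher in venous plasma, and 12 passed an unadjusted 0.05. At a Benjamini-Hochberg adjusted p of 0.05 in limma, 0 of 758 (0%) passed, and the smallest adjusted p was 0.241. Among the 126 microRNAs detected on all arrays, 25 (19.8%) moved the same way in all 3 rats, and neither rno-miR-188-5p nor rno-miR-500-3p did. Values above the floor on at least 1 array were held by 6 members, of which only 2 were detected. The median of the 6 differences was -0.12 on the log2 scale (-0.04, -0.40 and 0.19 in rats 1, 2 and 3), beside -0.004 over the 126, and it rests mostly on values at background level.

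The direction of both mean differences turned without normalization. In that case, arterial minus venous was 1.04, -0.51 and 0.17 for rno-miR-188-5p and 0.44, -0.84 and 0.67 for rno-miR-500-3p in rats 1, 2 and 3, with means of 0.24 and 0.09. The median over the 126 detected microRNAs was then 0.40, and 0.63, -0.29 and 0.84 in the 3 rats. Relative to that median the means were -0.17 for rno-miR-188-5p and -0.31 for rno-miR-500-3p. When the arrays were scaled to the 75th percentile of the detected microRNAs, rno-miR-500-3p was different by -0.40, -0.40 and -0.20 (arterial minus venous, log2) in the 3 rats, and just missed the cutoff of 0.025 in limma. In the authors' own quantile-normalized table, which keeps the background in its values, the log2 intensity of rno-miR-500-3p was 5.75, 5.82 and 5.98 in arterial and 5.90, 5.99 and 6.06 in venous plasma. Arterial minus venous was -0.15, -0.17 and -0.08, with a mean of -0.13 (SE 0.04, limma adjusted p = 0.890), so that it passed the unadjusted cutoff of 0.025 there and not the adjusted threshold. These values average probes that moved in opposite directions in rats 1 and 3 of the authors' table. On its linear scale, arterial minus venous was 2, -3.79 and -10.67 for the dimmer probe and -13.67, -10 and 3.04 for the brighter. Over 11 ways of processing, the quantile normalization above among them, rno-miR-500-3p was lower in the arterial plasma of all 3 rats in 5, and rno-miR-188-5p in 0.

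**Figure D5:**
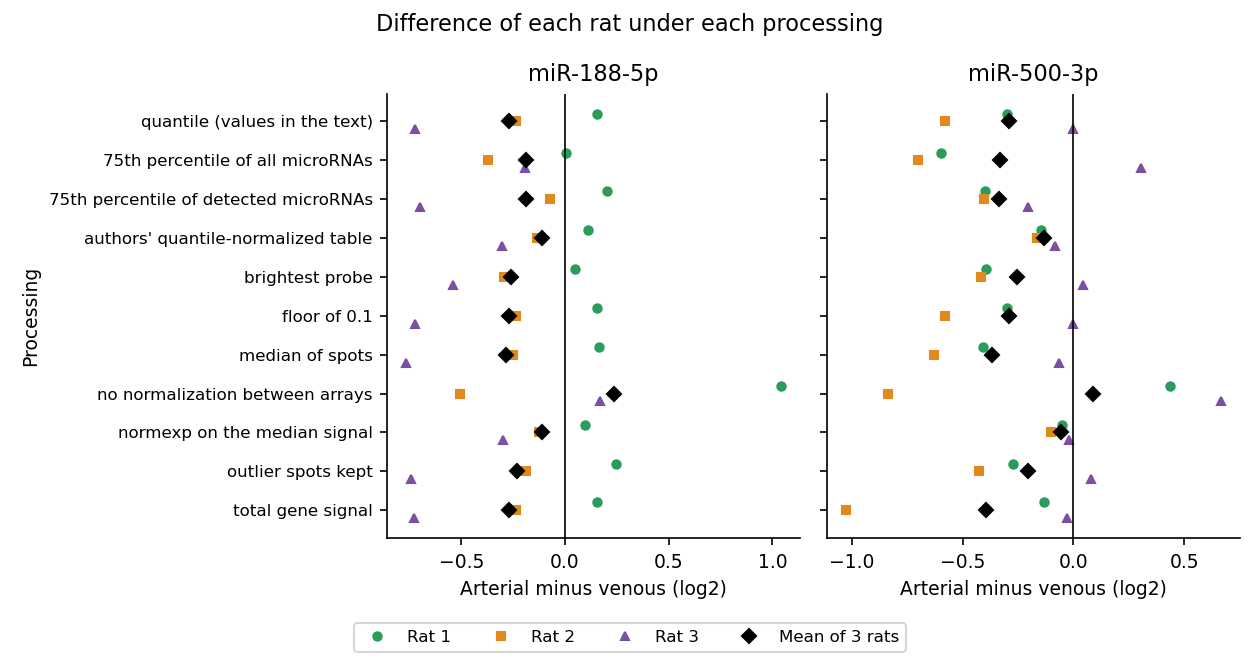
Arterial minus venous difference (log2) of rno-miR-188-5p (left) and rno-miR-500-3p (right) in each rat (coloured symbols) and as the mean of 3 rats (black diamonds) under 11 ways of processing the arrays. Means lie between -0.28 and 0.24 for rno-miR-188-5p and between -0.40 and 0.09 for rno-miR-500-3p, with values above 0 only where arrays were not normalized.

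On the quantile-normalized scale, the levels of the detected members, averaged over the plasmas of each rat, ran in opposite orders over the 3 rats. In venous plasma alone, rno-miR-188-5p was lowest in rat 2 (5.90, against 5.94 in rat 3). The mean of a rat's arterial and venous plasma was 6.61, 5.78 and 5.58 on the log2 scale for rno-miR-188-5p in rats 1, 2 and 3, so that rat 1 stood highest, by 1.03 over rat 3. It was 3.49, 3.76 and 4.23 for rno-miR-500-3p, so that rat 3 stood highest, by 0.74 over rat 1. The 11 ways of processing include the values just given and a floor of 0.1, which left both members unchanged, so these match in every case. Over the 11, rno-miR-188-5p kept the order of the rat means in all 11, with 0.55 to 1.49 between the highest and the lowest rat. rno-miR-500-3p kept it in 9, with 0.13 to 0.96 between them. Its rat means were 3.57, 4.00 and 3.72 without normalization, with rat 2 highest, and 3.64, 3.46 and 4.19 with scaling to the 75th percentile of the detected microRNAs, with rat 2 lowest. Neither passed limma's F test between rats over all microRNAs (adjusted p = 0.875 for each), in which 26 of 758 (3.43%) passed an unadjusted 0.025 and 0 (0%) an adjusted 0.05. Fitted with only the microRNAs detected on every array, of which 3 of 126 (2.38%) passed the adjusted threshold, the F test of limma gave an adjusted p of 0.107 for rno-miR-188-5p and 0.151 for rno-miR-500-3p.

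The centred log2 values of rno-miR-500-3p and rno-miR-188-5p over the 6 arrays lay 1.91 apart (Euclidean distance, the smaller the more alike). Against the 124 other microRNAs detected on every array, the median distance was 1.15 for rno-miR-500-3p and 1.53 for rno-miR-188-5p. The closest to rno-miR-500-3p were rno-miR-92a-3p at 0.47, rno-miR-103-3p at 0.50 and rno-miR-324-3p at 0.52. rno-miR-92a-3p, an abundant microRNA of blood cells, measured 7.50, 7.39 and 8.23 in arterial and 7.82, 7.64 and 8.23 in venous plasma on the log2 scale, so that it too was highest in rat 3. These distances rest on 6 arrays that share rats and slides, and are given without a test.

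Markers of blood cells and liver were present in all samples. The 4 platelet and leukocyte microRNAs (miR-223-3p, miR-142-3p, miR-142-5p and miR-150-5p) were detected on all 6 arrays, and their summed normalized intensity was 490, 578 and 931 in arterial and 649, 661 and 888 in venous plasma of rats 1, 2 and 3. As for rno-miR-500-3p, rat 1 was lowest and rat 3 highest in both plasmas. Of 5 erythrocyte microRNAs 4 were on the array and 3 detected on every array (miR-144-5p on none). Their sums in rats 1, 2 and 3 were 1843, 1648 and 1804 in arterial and 1912, 1855 and 1308 in venous plasma, with rat 1 highest in both. Of 3 liver microRNAs 2 were detected on every array (miR-194-5p on none). Their sums in rats 1, 2 and 3 were 74.3, 585 and 197 in arterial and 94.2, 267 and 162 in venous plasma, with rat 1 lowest and rat 2 highest in both. The part of these cells in the values of the members was not tested, and fewer cells of a type and less RNA per cell cannot be told apart in plasma.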

How the data were processed

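The authors deposited Agilent Feature Extraction output for each array (processed intensity, background subtracted by that software, with no scaling between arrays) together with linear intensities of each probe that they quantile normalized with GeneSpring. The array headers give version 10.7.3.1 of Feature Extraction and the labels give 11.0.1.1. Control spots and outlier spots (8.72 to 10.4% of spots per array) were left out, spots were averaged by probe and probes by microRNA, and 758 microRNAs were quantile normalized, floored at 1 and put on the log2 scale. Limma 3.58.1 in R 4.3.3 (rat as block, two-sided, over all 758) tested arterial minus venous differences, and an F test the rats. Its prior carried 0.198 degrees of freedom (3.22 over the 126 detected on every array). Other values used Python 3.11.15. The steps were tested on simulated data. Deviations of the samples of a rat from their group means correlated at 0.799, 0.686 and 0.635 in rats 1, 2 and 3 over the 126. No saturated spots occurred, and 137 to 175 microRNAs were detected per array. The number of arrays limits the precision. All members were named, with other arms as counts, the 3 microRNAs nearest to rno-miR-500-3p and the marker lists; rno-miR-3560 was added after its values were seen. Members and lists were chosen with earlier results of these data known. Alternatives changed the normalization, intensity, probe summary, floor, filter, test, block and rats. Sequences are from RefSeq GRCr8, while the array files name an older assembly.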

Additional observations from a re-analysis of the deposited data

How the results depend on the processing

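The count of members past the cutoff of 0.025 between arterial and venous plasma was 0 in 17 of 18 alternatives and 1 (rno-miR-500-3p) in the authors' quantile-normalized table. The count at an adjusted p of 0.05 in limma was 0 in all 18, and between rats 0 in all 15. The difference in the count of detected members was 0 in 4 of 5 alternatives and 0.333 (arterial higher, exact p = 1) when at least 8 of 16 spots had to be well above background. Only rat 1 differed there, so that the sign-flip test could give no other p. Without normalization between arrays the differences turned positive, at 0.24 for rno-miR-188-5p and 0.089 for rno-miR-500-3p, by the construction of that alternative, which leaves in the brightness of the arrays. In the other 17 alternatives they ranged from -0.48 to -0.04 and from -0.44 to -0.06, and rno-miR-500-3p passed the cutoff in the authors' table (-0.13). The median difference was taken over the members above the floor on at least 1 array, and these members changed with the processing. With the processing of the text they were 6, 4 of them detected on none. The median ranged from -0.33 to 0.12, and was above 0 with the median of spots (0.12), without normalization (0.12) and without rat 2 (0.03). The -0.33 came with the total gene signal, where only rno-miR-188-5p and rno-miR-500-3p were above the floor. Without the rat as a block (no pairing), the count of members past the cutoff was again 0 and the difference in detected members 0, and the block changed no call. Leaving out each rat in turn gave counts of 0, with both ends of the range for rno-miR-188-5p (-0.48 without rat 1 and -0.04 without rat 3) and -0.44 to -0.15 for rno-miR-500-3p. The floor of 0.1 was the only alternative with a floor in which a hairpin (miR-532) had both arms above it on every array, where the change of the log2 ratio of the arms between plasmas was 0.21 ± 0.36 (SD, n = 3, exact p = 0.5), though neither arm was detected. Members at the background have no measured difference.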

Other observations

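One more microRNA of the locus was measured, chosen after its values were seen. rno-miR-3560 is read from a hairpin on the strand opposite to Clcn5, at chrX:17927178-17927289 (GRCr8, minus strand), which overlaps Mir501, and its mature form lies opposite rno-miR-501-3p, with its reverse complement identical to that arm at 22 of 22 positions. Its sequence, with the seed in capitals, is shown because it is complementary to an arm of the cluster. Whether these RNAs pair in plasma was not tested.

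rno-miR-3560: cAAAUCCUugcccgggugcauu

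It was called detected on all 6 arrays, while rno-miR-501-3p was detected on none. Its processed intensity before normalization in rats 1, 2 and 3 was 28.7, 7.55 and 2.87 on the arterial side and 12.6, 9.45 and 2.88 on the venous side. Rat 1 was highest and rat 3 lowest in both plasmas. On the arrays of rat 3 it had 0 of 16 spots well above background. It also lay under the mean plus 2 SD of single negative control spots, a wide mark for a mean of spots. Its detection there rests on the software's own call, and no difference between the plasmas is given for that rat. Quantile normalized, arterial minus venous was 0.63 in rat 1 and 0.10 in rat 2 on the log2 scale, and no test is given. The sign in rat 2 depended on the normalization, since before it the arterial value was the lower there (7.55 against 9.45).

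The centred pattern of rno-miR-188-5p over the 6 arrays was closest to those of rno-miR-483-5p (distance 0.23), rno-miR-134-5p (0.40) and rno-miR-30c-1-3p (0.42), which were also chosen after the values were seen, and are given without a test. rno-miR-483-5p, cut from an intron of Igf2, measured 6.53, 5.52 and 4.93 in arterial and 6.46, 5.61 and 5.61 in venous plasma on the log2 scale.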
